A study of Mus musculus with 16 samples.

Results

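A set of mouse genes from unrelated families, 7 of the 19799 genes in the count table, were followed over 16 RNA sequencing libraries: the gel-forming mucins Muc5b and Muc5ac, and Psca, Crhr2, Asb10, Slc17a7 and Pth2. They were chosen by their read levels, as genes with the largest rises when msx2 was switched on in myotubes and few reads before. The values that chose them are those of induced and uninduced msx2-line myotubes, so their rise there is given below as a description without a test. The cells were pmi28, mouse myoblasts that can be made to fuse into myotubes with many nuclei, in 2 transgenic versions, one with doxycycline-inducible msx2 and GFP and one with inducible GFP alone. In each line there were 3 libraries of induced isolated myotubes, which had received doxycycline at 2 µg/ml for 24 h in growth medium, 3 libraries of uninduced isolated myotubes and 2 libraries of uninduced myoblasts. Myotubes of both lines, induced or not, had fused for 3 days, been trapped on a mesh and been kept with the cytostatic AraC before the treatments. The medium of the uninduced myotubes during the treatment is not stated separately, so the GFP line served as the control for doxycycline, growth medium and GFP together. The labels do not say whether each line was a single clone, nor whether the replicates were separate cultures. The p-values thus compare differences with a spread between libraries that may be technical. Spread against counting error, as chi-square per degree of freedom between pairs of libraries, was 1.949 in GFP-line myoblasts. In the other groups it was 10.5 to 31.26. GFP-line myoblasts, the reference in differentiation and in the comparison of myoblasts, thus came nearest to counting error.

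Msx2 is a homeobox transcription factor known mainly as a repressor, and Msx proteins are known in muscle precursors for holding back differentiation. Gel-forming mucins are very large secreted glycoproteins that goblet and gland cells of the airway, stomach and gut make, coat with O-linked sugars and release as mucus. Their genes lie side by side as Muc6, Muc2, Muc5ac and Muc5b. The other members come from unrelated families. Psca, prostate stem cell antigen, is a small lipid-anchored surface protein of the Ly6 family found on epithelia. Crhr2 is the G protein-coupled receptor for urocortins, peptides of the corticotropin-releasing factor family. Asb10 is an ankyrin-repeat protein with a SOCS box, the module by which its family binds cullin ubiquitin ligases. Slc17a7, also called VGLUT1, loads glutamate into synaptic vesicles of neurons. Pth2 encodes the peptide TIP39, a ligand of the second parathyroid hormone receptor.

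Total counts per library lay between 19784873 and 33092666, and levels are given as CPM, which are read counts over the library size after TMM scaling. Reads assigned to Msx2 averaged 1440 ± 87.1 CPM in induced msx2-line myotubes and 13.7 ± 1.94 CPM in uninduced msx2-line myotubes (SD, n = 3 each). In the GFP line Msx2 averaged 1.04 ± 0.231 CPM in induced and 1.11 ± 0.0723 CPM in uninduced myotubes (SD, n = 3 each). The 9 skeletal muscle markers were all detected in every group, and their summed level was 12769 to 15066 CPM in induced against 22273 to 26088 CPM in uninduced msx2-line myotubes. Myh3 and Ttn made up most of that gap, averaging 2076 and 2843 CPM in induced and 8269 and 5200 CPM in uninduced ones. Des and Ckm alone of the 9 went the other way. They averaged 5238 and 404 CPM in induced and 4890 and 339 CPM in uninduced ones. A list of 9 mucous epithelium markers summed to 16.9 to 24.6 CPM in induced and 18.8 to 32.4 CPM in uninduced msx2-line myotubes. Most of that sum was Krt19 and Cdh1, at 7.83 and 8.31 CPM in induced and 11.4 and 11.9 CPM in uninduced msx2-line myotubes. Of the other 7 markers, Krt8, Krt18, Epcam, Muc1 and Spdef averaged 1.41, 0.380, 0.733, 0.941 and 1.12 CPM in induced and 0.552, 0.143, 0.442, 0.573 and 0.630 CPM in uninduced ones. The goblet cell genes Agr2 and Tff2 averaged 0.0532 and 0.0119 CPM in induced and 0.163 and 0.0119 CPM in uninduced ones. The part of these markers in the members' levels was not tested. A list of 6 neuronal markers summed to 62.7 to 86.2 CPM in induced and 83.1 to 91.0 CPM in uninduced msx2-line myotubes, most of it Tubb3. The replicates numbered 2 of the msx2 line stood apart in the sum of 4 fibroblast markers. It was 832 CPM in induced replicate 2 against 257 and 380 CPM in induced replicates 1 and 3. In uninduced msx2-line myotubes that sum was 716 CPM in replicate 2 and 239 and 434 CPM in replicates 1 and 3. Most of it was Col1a1, which averaged 474 CPM in induced and 447 CPM in uninduced msx2-line myotubes. Col1a1 was higher in myoblasts, at 1109 CPM in the msx2 line and 730 CPM in the GFP line.

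The label near-silent held for 6 of the 7 genes. Muc5b, Muc5ac, Psca, Crhr2, Asb10 and Pth2 each averaged under 1 CPM in uninduced msx2-line myotubes, whereas Slc17a7 averaged 8.68 ± 0.195 CPM (SD, n = 3). In the ranking behind the choice (log2 fold change in msx2 induction, at least 2 CPM in the higher group, groups that do not overlap), Msx2 itself was 1st and the members held places 2, 3 and 5 to 9. Place 4 went to Mybpc3, the cardiac form of myosin-binding protein C, with a log2 fold change of 5.95. The last member, Slc17a7, stood at 4.81, and the next genes outside were Thrsp at 4.59, Ccdc155 at 4.28 and Slc5a5 at 4.24. The step from the last member to the next gene was thus small. Rises were also counted by starting level. Of 1973 tested genes under 1 CPM in uninduced msx2-line myotubes, 268 (13.6%) were higher after msx2 induction, against 2367 of 14272 genes (16.6%) at or above 1 CPM, which also have more reads. The lower set includes 6 members and genes that may have passed the low-count filter through the induced libraries. These shares therefore cannot show whether starting level matters. Of the 268, only 10 reached at least 10 CPM, and 5 of these were Muc5b, Muc5ac, Psca, Crhr2 and Asb10. Mybpc3, Ccdc155, Necab3 and Tuba8 were among the rest.

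**Figure D1:**
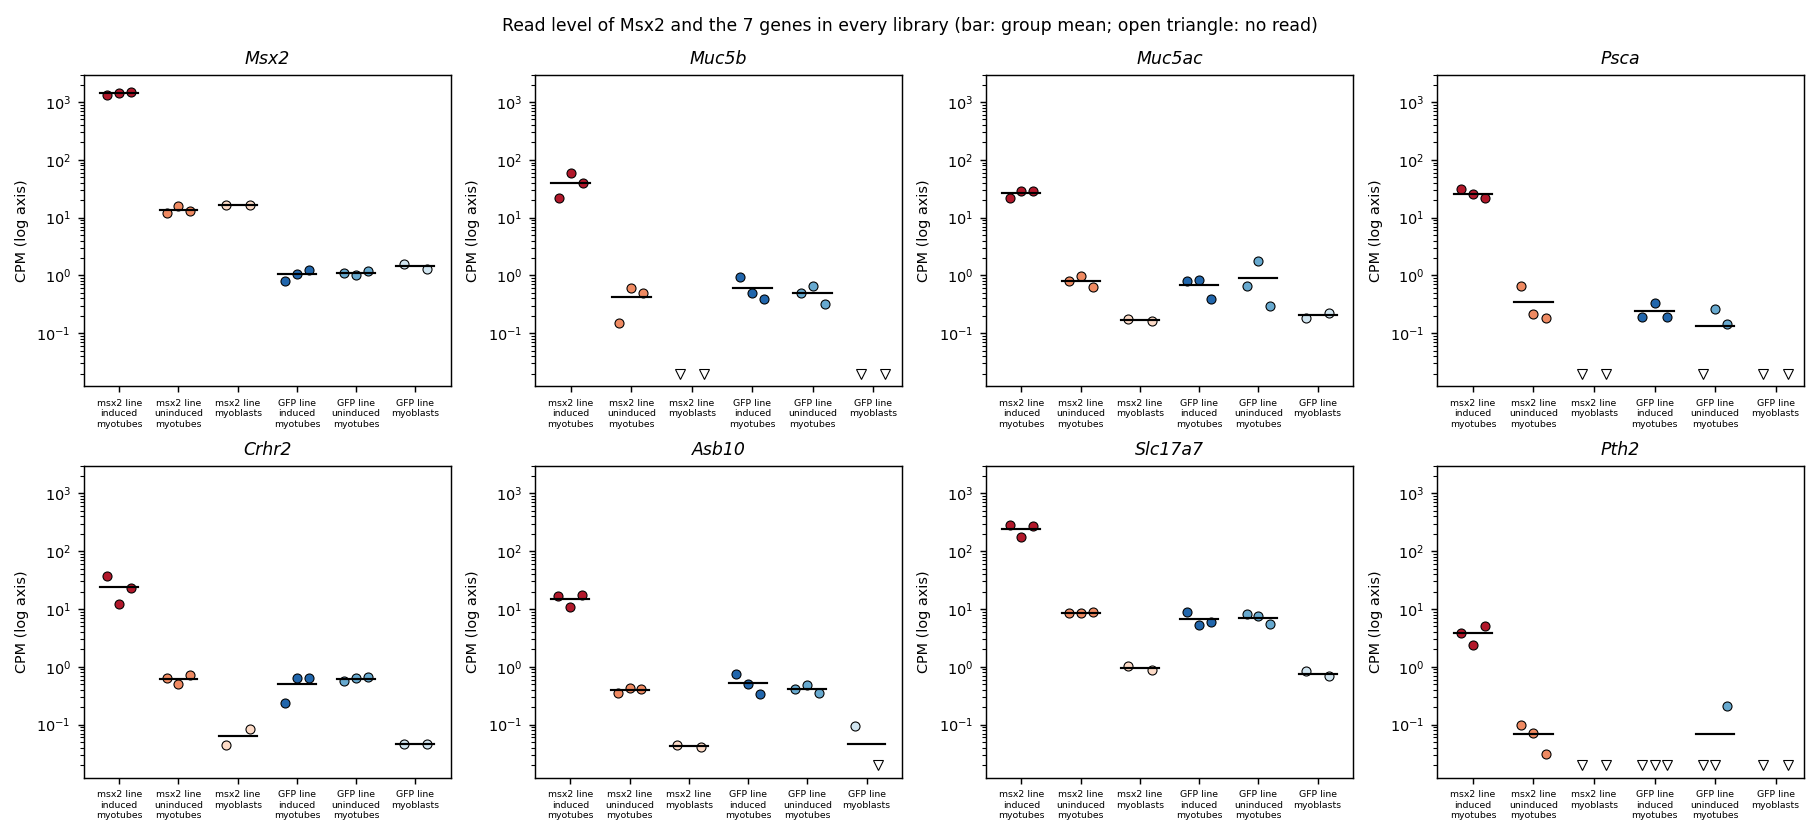
Level of Msx2 and of each of the 7 genes in every library, in CPM on a log axis, by group; points are libraries, bars are group means and open triangles are libraries with no read. For every member the 3 induced msx2-line libraries lie above all others, and myoblast libraries lie lowest or hold no read.

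Both mucins were far more abundant in induced msx2-line myotubes than anywhere else. Muc5b stood at 21.8, 58.6 and 40.1 CPM in the 3 induced msx2-line libraries, against 0.150, 0.604 and 0.498 CPM in uninduced msx2-line myotubes. Every induced library lay above every uninduced one, and the induced mean was 96.2-fold the uninduced mean, a log2 fold change of 6.48 ± 0.47 (SE). With GFP alone, Muc5b stood at 0.945, 0.504 and 0.389 CPM in induced and 0.506, 0.664 and 0.324 CPM in uninduced GFP-line myotubes, which overlap. No Muc5b read was counted in any of the 4 myoblast libraries. Muc5ac stood at 21.6, 28.5 and 29.4 CPM in induced msx2-line myotubes, against 0.799, 0.995 and 0.623 CPM in uninduced ones. These groups did not overlap either, at 32.9-fold (log2 5.04 ± 0.37, SE). GFP-line Muc5ac stood at 0.803, 0.841 and 0.389 CPM in induced and 0.658, 1.81 and 0.294 CPM in uninduced myotubes, so that a single uninduced library was the highest of the line. In myoblasts it was at 0.178 and 0.164 CPM in the msx2 line and at 0.187 and 0.228 CPM in the GFP line. All 7 members had non-overlapping, higher groups in msx2 induction, as 20.3% of all tested genes did, and all 7 were past the threshold, as 16.2% of all genes were in that direction. Both counts follow from how the genes were picked. In bulk libraries, more cells that express a gene and more RNA per cell cannot be told apart.

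The shares of the neighbouring mucins in their joint reads are given as a description, since the same counts chose them. Of the reads of the pair, Muc5ac held 39.7% in induced msx2-line myotubes (exact 95% binomial interval 38.3 to 41.0%, 5191 reads of the pair) and 64.0% in uninduced ones (53.8 to 73.4%, 100 reads). These intervals cover counting error only, and the libraries spread wider, at 49.7, 32.8 and 42.3% in induced and 84.2, 62.2 and 55.6% in uninduced msx2-line myotubes. The lowest uninduced share lay above the highest induced one. In GFP-line myotubes Muc5ac held 52.9% (41.8 to 63.9%) of the pair's reads in induced and 64.9% (55.2 to 73.7%) in uninduced libraries. There the libraries overlapped, at 45.9, 62.5 and 50% in induced and 56.5, 73.1 and 47.6% in uninduced GFP-line myotubes. In myoblasts all of the pair's reads were Muc5ac, 8 reads in the msx2 line and 9 in the GFP line.

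Psca stood at 31.4, 25.6 and 21.6 CPM in induced msx2-line myotubes, against 0.649, 0.213 and 0.187 CPM in uninduced ones. The groups were far apart, at 74.8-fold (log2 6.35 ± 0.34, SE). Psca in the GFP line had 4, 8 and 4 reads in induced myotubes and 0, 7 and 5 reads in uninduced ones, and none of the 4 myoblast libraries held a read. Psca and Pth2 passed the filter on low counts only through the induced msx2-line libraries. Without those libraries 5 of the 7 members would have been tested.

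Crhr2 and Asb10 were alike in fold but not in level or spread. Crhr2 stood at 37.1, 12.0 and 23.2 CPM in induced msx2-line myotubes, against 0.649, 0.498 and 0.716 CPM in uninduced ones. The induced libraries differed 3.10-fold among themselves but all lay above the uninduced ones, and the induced mean was 38.8-fold the uninduced mean (log2 5.26 ± 0.40, SE). Crhr2 in the GFP line stood at 0.236, 0.630 and 0.632 CPM in induced and 0.556, 0.627 and 0.677 CPM in uninduced myotubes, and both myoblast groups held 1 or 2 reads per library. Asb10 stood at 16.6, 10.9 and 17.3 CPM in induced msx2-line myotubes, against 0.349, 0.427 and 0.405 CPM in uninduced ones. Those groups did not overlap, at 37.9-fold (log2 5.21 ± 0.26, SE). Asb10 in the GFP line stood at 0.756, 0.504 and 0.340 CPM in induced and 0.405, 0.479 and 0.353 CPM in uninduced myotubes, and myoblast libraries held 0 to 2 reads each.

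The start-site sequences of both genes are shown as a pair on different chromosomes with close folds in msx2 induction, 38.8 for Crhr2 and 37.9 for Asb10. They are the RefSeq promoters of GRCm38.p6, 250 bases before and 50 after the start, 5′ to 3′ on the gene's strand, Asb10 at chr5:24540929-24541228 (minus strand) and Crhr2 at chr6:55132967-55133266 (minus strand). Capitals mark matches to 4 short motifs searched on both strands: TAATTG (or CAATTA), a homeobox core of the kind that Msx proteins bind; CANNTG, the E-box of muscle regulators; TATAAA (or TTTATA); and GGGCGG (or CCGCCC), the GC box.
Asb10: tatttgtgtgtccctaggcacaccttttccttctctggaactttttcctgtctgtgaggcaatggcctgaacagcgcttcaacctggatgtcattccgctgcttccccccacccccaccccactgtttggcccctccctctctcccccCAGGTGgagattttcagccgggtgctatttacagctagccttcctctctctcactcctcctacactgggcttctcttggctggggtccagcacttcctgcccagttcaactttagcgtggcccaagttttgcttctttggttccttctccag
Crhr2: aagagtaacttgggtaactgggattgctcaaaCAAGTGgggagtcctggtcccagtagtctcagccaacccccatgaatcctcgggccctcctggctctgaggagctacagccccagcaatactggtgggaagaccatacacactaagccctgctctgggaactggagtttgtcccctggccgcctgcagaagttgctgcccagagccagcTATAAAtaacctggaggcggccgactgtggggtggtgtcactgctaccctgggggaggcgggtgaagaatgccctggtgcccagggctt
The Asb10 window held 1 E-box, CAGGTG, 102 bases before the start, and the Crhr2 window held 1, CAAGTG, 218 bases before the start, as did 72.3% of all 32851 promoters of the table in some form. Crhr2 also held TATAAA 39 bases before the start, which 13.6% of all promoters held. Neither window held TAATTG, present in 8.0% of all promoters. A match is a description of the letters and not evidence that a factor sits there.

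Slc17a7 and Pth2 are near neighbours on chromosome 7 and both stood highest in induced msx2-line myotubes, at very different levels. Slc17a7 stood at 283, 179 and 271 CPM in induced msx2-line myotubes, against 8.48, 8.67 and 8.87 CPM in uninduced ones. That is 28.2-fold (log2 4.81 ± 0.20, SE), and replicate 2, the lowest induced library, was still far above the uninduced ones. In the GFP line Slc17a7 stood at 8.69, 5.38 and 5.93 CPM in induced and 8.04, 7.52 and 5.53 CPM in uninduced myotubes. In myoblasts it was at 1.03 and 0.863 CPM in the msx2 line and at 0.840 and 0.684 CPM in the GFP line. Pth2 had 91, 60 and 145 reads in induced msx2-line myotubes (3.85, 2.36 and 5.16 CPM), against 2, 2 and 1 reads in uninduced ones. Its fold was 56.3 (log2 5.82 ± 0.64, SE), the least precise of the 7. No Pth2 read was counted in induced GFP-line myotubes or in myoblasts of either line, and the 7 reads of uninduced GFP-line myotubes all fell in replicate 3.

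Both promoters are shown because the genes lie close together on one chromosome and stood at very different levels, with the same motifs in capitals and from the same RefSeq table: Slc17a7 at chr7:45163671-45163970 (plus strand) and Pth2 at chr7:45180745-45181044 (plus strand), GRCm38.p6.
Slc17a7: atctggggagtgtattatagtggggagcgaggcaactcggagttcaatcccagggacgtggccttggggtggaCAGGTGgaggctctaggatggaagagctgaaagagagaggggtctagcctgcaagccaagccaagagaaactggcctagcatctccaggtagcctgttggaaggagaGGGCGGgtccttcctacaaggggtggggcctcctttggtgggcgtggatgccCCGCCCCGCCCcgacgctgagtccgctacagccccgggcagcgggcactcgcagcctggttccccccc
Pth2: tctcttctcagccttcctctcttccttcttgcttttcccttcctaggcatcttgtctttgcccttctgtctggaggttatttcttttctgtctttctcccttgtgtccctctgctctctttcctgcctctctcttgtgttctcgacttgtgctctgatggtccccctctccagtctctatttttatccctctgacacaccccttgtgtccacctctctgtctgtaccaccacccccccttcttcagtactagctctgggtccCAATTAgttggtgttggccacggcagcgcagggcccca
Of the 4 windows, Pth2 alone held the homeobox core, as CAATTA, 12 bases after the start. Slc17a7 held 1 E-box (CAGGTG, 177 bases before the start) and 3 GC boxes, 70, 18 and 13 bases before the start, of which the last 2 share a base. At least 1 GC box was present in 35.7% of all promoters. The GC content was 63.7% for Slc17a7, 52.3% for Pth2, 59.0% for Crhr2 and 55.0% for Asb10, against a median of 52.7% over all promoters. No promoter sequence is given for Muc5b, Muc5ac and Psca.

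Pth2 stayed a small share of the reads of this chromosomal pair. It held 1.54% of Pth2 and Slc17a7 reads in induced msx2-line myotubes (exact 95% binomial interval 1.37 to 1.73%; 1.34, 1.30 and 1.87% in the libraries) and 0.710% in uninduced ones (0.231 to 1.65%, from 5 Pth2 reads). These intervals overlap. Among 434 reads of the pair in induced GFP-line myotubes none was Pth2, which allows a share of up to 0.846%, and uninduced GFP-line myotubes had 1.25% (0.506 to 2.57%).

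Since the genes differ in length, their levels were also set against each other per kilobase of annotated exon. In induced msx2-line myotubes Slc17a7 stood highest, at 45.3 ± 10.5 RPKM (CPM per kilobase), followed by Psca at 30.4 ± 5.71 (SD, n = 3). The next 3 did not differ beyond their spread: Pth2 at 5.67 ± 2.10, Asb10 at 5.32 ± 1.25 and Crhr2 at 4.71 ± 2.47. The mucins, with the longest transcripts, came last, Muc5b at 2.68 ± 1.23 and Muc5ac at 2.46 ± 0.399. Among 15303 genes with a length, Slc17a7 stood at percentile 94.2 in induced and 33.8 in uninduced msx2-line myotubes. Psca was at percentile 90.5 in induced and 14.9 in uninduced ones. Muc5b was at percentile 41.9 in induced and 0.150 in uninduced ones, and Muc5ac at 40.3 in induced and 1.40 in uninduced ones. Induced myotubes thus held Slc17a7 and Psca among their more abundant transcripts per length and the mucins below the middle of the range.

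**Figure D2:**
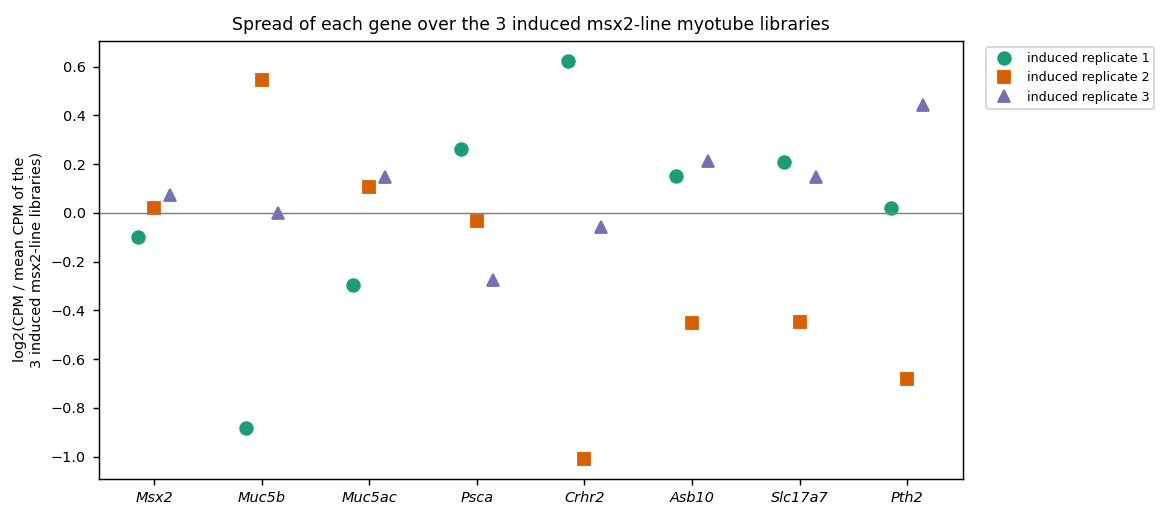
Level of Msx2 and of each of the 7 genes in the 3 induced msx2-line libraries, as log2 of the CPM over the mean of the 3. Msx2 lies within a narrow band, whereas Muc5b is highest and Crhr2, Asb10, Slc17a7 and Pth2 are lowest in replicate 2.

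The members did not vary together among the induced libraries. Msx2 itself had a coefficient of variation of 6.05% over the 3 libraries, at 1344, 1462 and 1515 CPM. Muc5ac varied by 16.2%, Muc5b by 45.8% and Crhr2 by 52.4%. Replicate 2 was the lowest library for Crhr2, Asb10, Slc17a7 and Pth2 but the highest for Muc5b. In the same library the muscle marker sum was the lowest of the 3, at 12769 CPM against 14285 and 15066 CPM in replicates 1 and 3. The cycling myoblast marker sum was the highest, at 50.3 CPM against 30.5 and 22.0 CPM. The part of these differences in the members' spread was not tested. Without induced replicate 2, the log2 fold change was 6.11 for Muc5b and 5.59 for Crhr2. The median over the 7 members, from mean CPM, was 5.28 with all libraries and 5.61 without induced replicate 2.

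Whether doxycycline, growth medium and GFP alone moved the members was asked in the GFP line, which played no part in the choice. Psca and Pth2 could be tested in the GFP line and in myoblasts only because the induced msx2-line libraries carried them past the filter, so their values there are given without a test. None of the other 5 passed the edgeR threshold on GFP-line induction, 0 had an unadjusted p under 0.05, and DESeq2 called 0. Of all tested genes, 0.0308% were past the threshold in this comparison. For every member the libraries of both groups overlapped, and across all tested genes 2.61% had a higher induced group without overlap. The log2 fold change was -0.06 ± 0.22 for Slc17a7, the best counted member, 0.38 ± 0.39 for Asb10, -0.32 ± 0.62 for Crhr2 and -0.40 ± 0.53 for Muc5ac (SE, induced minus uninduced). It was 0.33 ± 0.74 for Muc5b. The adjusted p was 1 for each of the 5 tested. Outside Slc17a7 the few reads leave standard errors of 0.39 to 0.74 on the log2 scale. Compared directly, induced myotubes of the msx2 line stood 65.6-fold above those of the GFP line for Muc5b, 39.1-fold for Muc5ac, 109-fold for Psca, 48.2-fold for Crhr2, 28.0-fold for Asb10 and 36.7-fold for Slc17a7. For Pth2 the ratio was at least 82.8-fold, against a floor of 3 counts over the GFP group. All 7 were without overlap there, as 22.9% of all tested genes were in that direction, but this comparison shares the induced msx2-line libraries that chose them.

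**Figure D3:**
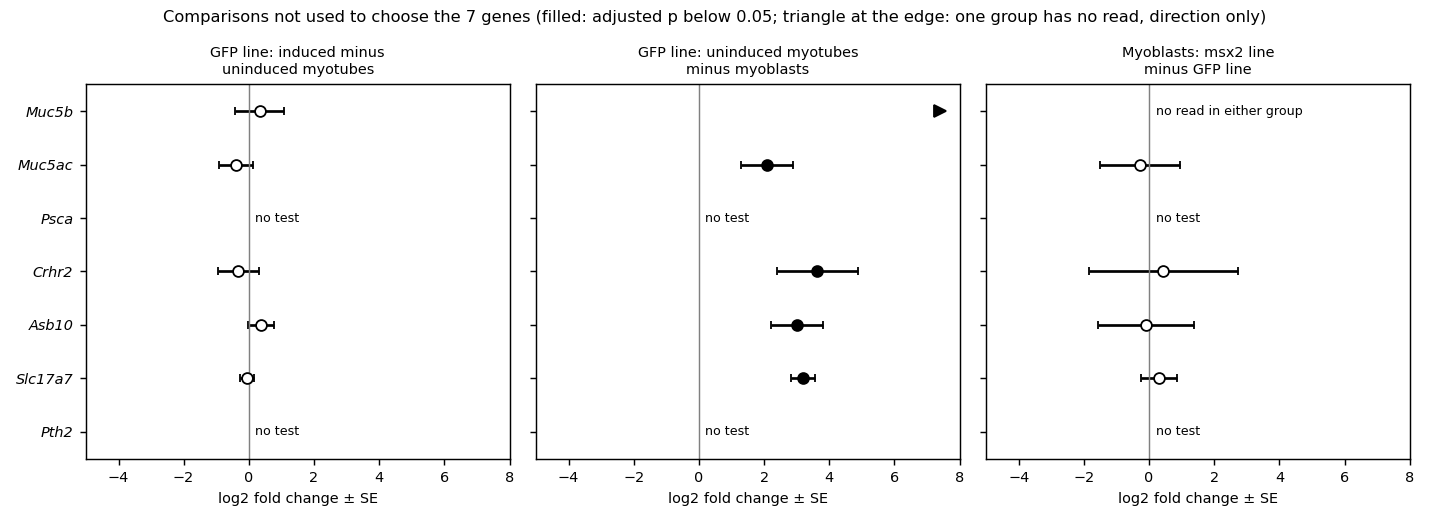
Log2 fold change ± SE of the 7 genes in the 3 comparisons that played no part in choosing them: GFP-line induction, GFP-line differentiation, and msx2-line against GFP-line myoblasts. Filled symbols are past the threshold, the triangle at the edge marks a gene without a read in one group, for which only the direction is drawn, and Psca and Pth2 have no test; 5 genes are filled in differentiation and 0 in the other comparisons.

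Low as they were, most members were higher in uninduced myotubes than in myoblasts of the GFP line. In edgeR's quasi-likelihood test the 5 members that pass the filter without the induced msx2-line libraries were called higher, where 39.8% of all tested genes were called higher and 37.9% lower. Slc17a7 averaged 7.03 ± 1.33 CPM in uninduced myotubes (SD, n = 3) and 0.762 ± 0.110 CPM in myoblasts (SD, n = 2), with a log2 fold change of 3.18 ± 0.37 (SE, adjusted p = 2.83e-06). It was above both myoblast libraries in 3 of 3 myotube libraries. Muc5ac averaged 0.920 ± 0.790 CPM in uninduced myotubes and 0.207 ± 0.0293 CPM in myoblasts (log2 2.09 ± 0.79, SE, adjusted p = 0.0252), again without overlap. Asb10 had 33 reads in uninduced myotubes and 2 in myoblasts, 8.85-fold after scaling (exact 95% counting interval 2.26 to 76.1, adjusted p = 0.0022). Crhr2 had 51 reads in uninduced myotubes and 2 in myoblasts, 13.7-fold (3.596 to 116, adjusted p = 0.0133). Muc5b was at least 7.20-fold higher in myotubes, against the floor (adjusted p = 0.0297), with reads in 3 of 3 myotube libraries and in neither myoblast library. Psca had 12 reads in uninduced myotubes and 0 in myoblasts, with overlapping groups, and Pth2 had 7 and 0 reads, all 7 in replicate 3. For these no test is given.

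Without either GFP-line myoblast library the calls of Muc5b, Muc5ac and Crhr2 were lost, and those of Slc17a7 and Asb10 held. The size of the Asb10 change rests on 1 library, since both myoblast reads fell in replicate 1, and without replicate 2 its log2 fold change was 2.07. Without uninduced GFP-line replicate 2, Muc5ac stood at a log2 fold change of 1.04 (adjusted p = 0.121), and Muc5b lost its call (adjusted p = 0.0673). With only the 2 groups of this comparison in the fit, Asb10, Psca and Pth2 had too few reads to be tested, and 3 of the other 4 were called. The same ordering stood in the msx2 line, given as values because its uninduced myotubes chose the members: 9.19-fold higher in uninduced myotubes than in myoblasts for Slc17a7 and 4.70-fold for Muc5ac. There Asb10 was 9.32-fold (2.38 to 80.2) and Crhr2 9.71-fold higher (3.14 to 48.7), Muc5b at least 6.51-fold and Psca at least 5.45-fold. Set against their own myoblasts, induced msx2-line myotubes held 259-fold more Slc17a7, 155-fold more Muc5ac, at least 626-fold more Muc5b, at least 408-fold more Psca, 370-fold more Crhr2 (counting interval 127 to 1798), 350-fold more Asb10 (96.7 to 2895) and at least 59.1-fold more Pth2.

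A low level of Msx2 in uninduced msx2-line cells was not accompanied by detectable rises of the members in myoblasts. Msx2 averaged 16.6 ± 0.277 CPM in msx2-line and 1.43 ± 0.219 CPM in GFP-line myoblasts (SD, n = 2 each), 11.6-fold apart (log2 3.53 ± 0.16, SE, adjusted p = 4.96e-09). Of the 5 members that pass the filter without the induced msx2-line libraries, Muc5b had no read in these myoblasts and could not be called. None of the others passed edgeR's threshold between the lines, 0 had an unadjusted p under 0.05 and DESeq2 called 0. Of all tested genes, 16.3% were called. Slc17a7 differed by 0.31 ± 0.56 on the log2 scale (SE, msx2 line minus GFP line, adjusted p = 0.756). For Muc5ac, Crhr2 and Asb10 the standard errors were 1.23, 2.28 and 1.48 on the log2 scale, so that a difference of several-fold was not detectable at this depth, and Muc5b, like Psca and Pth2, had no read in either line. In uninduced myotubes Msx2 was 12.4-fold higher in the msx2 line than in the GFP line. There 6 members overlapped between the lines, and Slc17a7 was 1.23-fold higher in the msx2 line with no overlap, as 6.11% of all tested genes were. That last value is a description, since the uninduced msx2-line libraries chose the members.

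**Figure D4:**
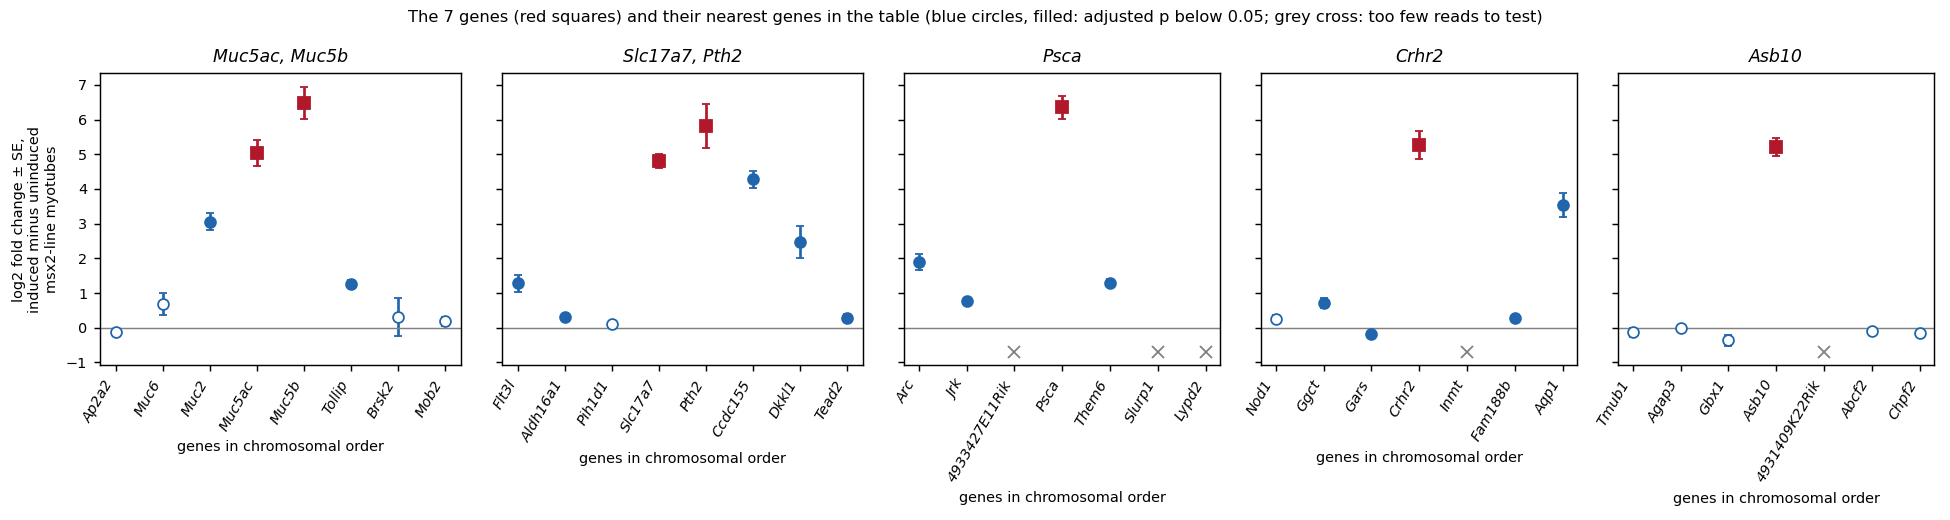
Log2 fold change ± SE between induced and uninduced msx2-line myotubes for the 7 genes (red squares) and the 3 nearest genes of the table on either side (blue circles, filled where past the threshold; grey crosses had too few reads to test), in chromosomal order. Filled circles stand beside the mucins, Slc17a7 and Pth2, Psca and Crhr2, and 0 beside Asb10.

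The genes next to the members, 3 on each side in the order of the RefSeq gene table, came to 30 genes, of which 25 were tested. In msx2 induction 13 of the 25 (52.0%) were higher and 1 was lower, where 16.2% of all tested genes were higher and 16.3% lower. The median log2 fold change was 0.32 over these neighbours and -0.01 over all genes. In the GFP line 0 of the 25 passed edgeR's threshold on induction, 0 had an unadjusted p under 0.05 and DESeq2 called 0. Between Slc17a7 and Pth2 the table holds no other tested gene. Beside Pth2 lies Ccdc155, which encodes a meiotic protein that ties telomeres to the nuclear envelope. It stood at 17.1, 11.7 and 20.5 CPM in induced msx2-line myotubes, against 0.699, 0.889 and 0.903 CPM in uninduced ones. The groups did not overlap, at a log2 fold change of 4.28 ± 0.25 (SE, adjusted p = 6.66e-09). As in Slc17a7 and Pth2, replicate 2 was the lowest induced library. The next genes were Dkkl1, a secreted protein of germ cells in mice, with 2.48 ± 0.46 (SE, adjusted p = 0.000506), and Tead2, a transcription factor of the Hippo pathway, with 0.29 ± 0.09 (SE, adjusted p = 0.0205). On the other side of Slc17a7, Pih1d1 differed by 0.12 ± 0.08 (SE, adjusted p = 0.318), while Aldh16a1 rose by 0.32 ± 0.06 and the cytokine gene Flt3l by 1.28 ± 0.25 (SE).

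Around the mucins, the nearest gene on either side rose. Muc2, the gel-forming mucin of the intestine, averaged 3.02 ± 0.208 CPM in induced and 0.351 ± 0.107 CPM in uninduced msx2-line myotubes (SD, n = 3 each), with a log2 fold change of 3.05 ± 0.25 (SE, adjusted p = 1.6e-07). Tollip, a widely expressed adaptor of innate signalling on the far side of Muc5b, averaged 273 ± 30.5 CPM in induced and 114 ± 12.5 CPM in uninduced ones (1.27 ± 0.10, SE, adjusted p = 9.58e-08). Muc6, the gastric mucin at the outer end of the row, averaged 1.12 CPM in induced and 0.703 CPM in uninduced ones and did not pass (0.68 ± 0.31, SE, adjusted p = 0.102).

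Near Psca all 3 tested neighbours rose: Arc, an immediate early gene of neurons, by 1.90 ± 0.23, Them6 by 1.28 ± 0.12 and Jrk by 0.76 ± 0.11 on the log2 scale (SE). Slurp1 and Lypd2, family relatives of Psca beside it, had too few reads to test, at 0.114 and 0.0263 CPM in induced and 0.151 and 0.0326 CPM in uninduced msx2-line myotubes. Near Crhr2, 3 of 5 tested neighbours rose and 1 fell. Aqp1, a water channel, averaged 12.6 ± 2.50 CPM in induced and 1.13 ± 0.433 CPM in uninduced ones (3.54 ± 0.34, SE, adjusted p = 3.57e-06), Ggct rose by 0.72 ± 0.14 and Fam188b by 0.27 ± 0.10, and Gars, the glycyl-tRNA synthetase, fell by 0.17 on the log2 scale. Unlike the members, Aqp1 was high in myoblasts too, at 49.1 CPM in the msx2 line and 47.4 CPM in the GFP line. Near Asb10 none of 5 tested neighbours passed edgeR's threshold or DESeq2's, and 1 had an unadjusted p under 0.05. No other gene of the annotation overlaps a member except a microRNA gene, Mir7055, within Slc17a7, which is not in the table.

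The families of the members were taken from lists with the members left out. Of 122 tested list genes, 25 (20.5%) were higher and 23 (18.9%) were lower in msx2 induction, with a median log2 fold change of 0.04. Of all tested genes, 16.2% were higher and 16.3% lower, and each list's counts below, some from few genes, are to be read against these shares. In GFP-line induction edgeR called 0 of the 122, 3 had an unadjusted p under 0.05 and DESeq2 called 0. Of 9 other mucins, 2 were higher and 0 lower (median 0.33), with 1 lower under RLE scaling, DESeq2, a replicate block or without uninduced replicate 2 or induced replicate 3: Muc2, described above, and Muc13, a membrane mucin, at 10.5 ± 1.01 CPM in induced and 5.02 ± 0.754 CPM in uninduced msx2-line myotubes (log2 1.06 ± 0.20, SE, adjusted p = 0.000751). Of 12 genes of mucus secretion, 4 were higher and 1 lower (median 0.42). The higher ones numbered 2 without uninduced msx2-line replicate 2 or 3 or induced replicate 1, and the lower ones 2 without uninduced replicate 1 or induced replicate 2. Foxa3, a transcription factor of goblet cells, rose by 1.55 ± 0.26 to 3.71 ± 1.01 CPM, against 1.28 ± 0.110 CPM uninduced. The epithelial factor Elf3 rose by 1.87 ± 0.48 and the airway secretory gene Bpifb1 by 1.31 ± 0.41, both from genes under 1 CPM uninduced, and Klf4, a factor of goblet cell maturation, fell by 0.84. Of 26 genes of mucin-type O-glycosylation, the pathway that builds the sugar chains, 5 were higher and 6 lower (median -0.07). The initiating transferases Galnt2 and Galnt1 rose by 0.34 ± 0.05 and 0.30 ± 0.05, and the sialyltransferase St3gal2 by 0.29 ± 0.06. The core 1 synthase C1galt1 fell by 0.61, its chaperone C1galt1c1 by 0.97 and Galnt18 by 0.59 on the log2 scale.

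Among 15 other genes of the Ly6 and uPAR family, 5 were higher and 2 lower (median 0.57). The lower ones numbered 1 without uninduced msx2-line replicate 2 or 3 or induced replicate 1 or 2. Lynx1, which binds nicotinic acetylcholine receptors, averaged 109 ± 9.80 CPM in induced and 51.1 ± 2.82 CPM in uninduced msx2-line myotubes (1.09 ± 0.15, SE, adjusted p = 4.83e-05). The urokinase receptor Plaur rose by 0.83 ± 0.14 and Ly6a, the antigen Sca-1, by 0.83 ± 0.23, while Lypd6 fell by 0.80 and Lypd6b by 0.66. Of 17 genes of the corticotropin-releasing factor and parathyroid hormone families and their receptor class, 4 were higher and 1 lower (median 0.26). The receptors Adcyap1r1, for PACAP, rose by 2.17 ± 0.39, Pth1r, for parathyroid hormone, by 1.28 ± 0.23 and Vipr1, for VIP, by 0.87 ± 0.22, and Calcrl, the receptor unit for CGRP, fell by 0.78. Of these, Pth1r was the best counted riser, at 9.58 ± 2.32 CPM in induced and 3.93 ± 0.743 CPM in uninduced ones.

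Of 19 Asb genes and ligase partners, 2 were higher and 7 lower (median -0.12), 3 of the 7 being the ligase partners Rnf7, Tceb1 and Tceb2. The higher ones numbered 1 without uninduced msx2-line replicate 1 or induced replicate 2. Asb2, which acts on filamins, rose by 1.13 ± 0.20 and Asb7 by 0.24 ± 0.08. Asb5, abundant in muscle, averaged 174 ± 26.5 CPM in induced and 559 ± 18.4 CPM in uninduced msx2-line myotubes (-1.68 ± 0.10, SE, adjusted p = 1.5e-08), Asb14 fell by 1.31, and Tceb2, the elongin B that bridges SOCS boxes to the ligase, fell by 0.26. The sum of the muscle markers was lower in the same libraries, with Des and Ckm going the other way, as given above. The part of these markers in these falls was not tested. Of 24 genes of the Slc17 family and of vesicular transmitter handling, 3 were higher and 6 lower (median -0.08). The vesicle proteins Sv2a, Cplx2 and Stx1a rose by 1.37 ± 0.23, 0.44 ± 0.12 and 0.37 ± 0.12. Glul, the enzyme that makes glutamine, fell by 1.26 and the vesicle protein Sv2b by 0.43.

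Across all 16 libraries the members' log2 CPM ran alongside each other, with Pearson's r between 0.89 and 0.99 for the pairs. The 6 groups set most of this, and the libraries share lines and depth, so r is a description. The genes outside the members with the most similar course were Fam63a, Pde2a and Hk2 for Muc5b (r = 0.98, 0.98 and 0.97) and the same 3 for Asb10 (r = 0.99, 0.99 and 0.98). They included Acvr2b and Irak2 for Muc5ac (r = 0.975 and 0.974) and Mybpc3 and Pqlc1 for Psca (r = 0.979 and 0.975). For Crhr2 they were Plin4, Ano1 and Mybpc3 (r = 0.99, 0.99 and 0.98), for Slc17a7 Ppp2r2c, Fam63a and Cpt1b (r = 0.99, each) and for Pth2 Gdpd5, Tinagl1 and Pqlc1 (r = 0.98, 0.97 and 0.97). Similar courses went with unequal changes: Fam63a averaged 101 CPM in induced and 51.7 CPM in uninduced msx2-line myotubes, and Pde2a 123 CPM in induced and 12.6 CPM in uninduced ones.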

How the data were processed

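The deposited values are counts, whole numbers of reads per gene for 19866 entries, per the file headers and values. Per the submitters' processing notes, the tools were edgeR 3.6.8, SAMtools 0.1.19 and TopHat2 2.0.11, with build mm9; their roles, the counter, its annotation and its use of strand are not given in the sources consulted. Per the labels' protocols, libraries were stranded mRNA. Dropping 67 entries that have no symbol (0.0601 to 0.0878% of a library) left 19799 genes. One edgeR 4.0.16 model with 1 coefficient per group was fitted to all 16 libraries (filterByExpr, minimum count 10, 16245 genes; TMM scaling; robust quasi-likelihood F-tests, two-sided; Benjamini-Hochberg over all genes, threshold 0.05). SE is the unshrunken log2 fold change over the square root of F, and is not given where a group has no read. Floors are 3 counts over a group, and counting intervals are exact binomial at 95%. Exon lengths (GENCODE M21), promoters and gene order (RefSeq) are of another build than mm9, matched by symbol.

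The members and gene lists were chosen with earlier results of these data known. Besides the members and Msx2, genes were named by rule: the 3 most correlated with each member (log2 CPM, prior count 2), up to 3 risers and 3 fallers per list by adjusted p, neighbours past the threshold, and genes beside the members in the ranking. Other genes named beyond the cell type marker lists (Muc6, Pih1d1, Slurp1, Lypd2, Rnf7, Tceb1 and genes at 10 CPM) were added after their values were seen. A few genes that met these rules are not reported here. Alternatives were RLE or total-count scaling, no filter or a minimum count of 30, only the groups compared, a block for replicate number, DESeq2 1.42.0, each library left out and, chosen after seeing the data, all induced msx2-line libraries left out. Same-numbered libraries deviated together in msx2 induction (r = 0.711, 0.792 and 0.342) and GFP-line induction (r = 0.732, 0.824 and 0.861) over 5000 genes, so the numbers pair those samples. The main model has no term for this pairing, and the shares of all genes given above come from it. With the block, edgeR called 6217 genes in msx2 induction, 3099 higher and 3118 lower. Without it, 5287 were called, 2635 higher and 2652 lower. The fit was also run on simulated data, with each gene at its mean level over all libraries. Changes were set only in induced GFP-line myotubes. For the members that mean lies above their level in the GFP line, so the run does not show the power there.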

Additional observations from a re-analysis of the deposited data

Results flagged for a closer look

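For the following genes, named above as neighbours or relatives of the members, induction in the msx2 line differed from induction in the GFP line by edgeR's test of the difference itself (adjusted p under the threshold in the same model). They had been named by their calls in msx2 induction, which enters that difference, so it is no independent support, and no explanation was weighed. Of all tested genes, 9.15% had a higher and 8.78% a lower induction in the msx2 line. The difference passed for 9 of the 14 called neighbours and for 23 of the 32 list genes that the naming rule picked. It did not pass for the neighbours Dkkl1, Ggct, Tead2, Fam188b and Gars. Among list genes it did not pass for Elf3, Bpifb1, Galnt18, Lypd6, Lypd6b, Asb7, Cplx2, Stx1a and Sv2b. Of the 12 genes of mucus secretion, 1 was higher and 1 lower by this test. Differences are msx2 line minus GFP line on the log2 scale.

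Among the neighbours the difference was 4.10 for Ccdc155, 3.39 for Aqp1, 2.43 for Muc2, 1.85 for Arc, 1.27 for Tollip, 1.15 for Flt3l, 1.12 for Them6, 0.87 for Jrk and 0.28 for Aldh16a1. Among mucins and mucus genes it was 1.38 for Foxa3, 1.15 for Muc13 and -0.85 for Klf4. For the sugar chain enzymes it was 0.34 for Galnt2, 0.34 for Galnt1, 0.34 for St3gal2, -0.98 for C1galt1c1 and -0.62 for C1galt1. For relatives of Psca it was 1.25 for Ly6a, 1.11 for Lynx1 and 0.89 for Plaur. Among receptors it was 2.74 for Adcyap1r1, 1.53 for Pth1r, 1.17 for Vipr1 and -0.66 for Calcrl. Among relatives of Asb10 it was 1.23 for Asb2, -1.63 for Asb5, -1.27 for Asb14 and -0.28 for Tceb2. For vesicle and glutamate genes it was 1.53 for Sv2a and -1.39 for Glul.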

How the results depend on the processing

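The members' values in msx2 induction kept their direction under every alternative run, and their median log2 fold change lay between 5.17 and 5.61 with each library left out. Members with a valid test that were called in GFP-line differentiation numbered 5. The fit's own count was 6, since it took in Psca, which has no valid test. That count was 3 with only the groups compared and 2 to 6 with each library left out. Muc5b, Muc5ac and Crhr2 lost their call without either GFP-line myoblast library. Muc5b (edgeR's adjusted p = 0.0673) and Muc5ac (0.121) also lost it without uninduced GFP-line replicate 2. Without the induced msx2-line libraries Psca and Pth2 were not tested and the other 5 were called. Genes called in GFP-line induction numbered 5; they were 9 with the replicate number as a block, 10 with DESeq2, 3 with only the groups compared and 3 to 7 with each library left out (3 without uninduced replicate 1 or 2), and 0 members were called in any. Genes called between myoblasts numbered 2652; they were 5173 with only the groups compared and 764 to 2152 with each library left out (764 without msx2-line replicate 1, 1156 and 853 without GFP-line replicates 1 and 2). The block moved no other count beyond 1.5 times except mucins called lower (1, against 0); same-numbered libraries did not deviate together in GFP-line differentiation (r = 0.004 and -0.082) and there were only 2 pairs of myoblasts (r = 0.121), where the block gave 3864 genes. The cause of these shifts was not tested. Called neighbours numbered 11 to 14 and called list genes 37 to 44 with each library left out. Depth limits the members most in myoblasts and in the GFP line, where 6 of 7 have few reads.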
